A study of Homo sapiens with 4 samples.

Results

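A set of 10 plasma protein genes of the liver was read across 4 RNA-seq libraries: HP, HPX, AHSG, FETUB, TTR, RBP4, ORM1, SAA1, AMBP and SERPINA1. They were chosen by symbol as secreted carriers and acute-phase proteins, and all 10 were found among the 42169 gene rows of the count table. The cells were Huh7, an established line from a human liver tumour, and the libraries came from a control clone (clone 1, labelled wild type) and from a double knockout of TTP and BRF1 (clone 18, here DKO). TTP is the product of ZFP36 and BRF1 that of ZFP36L1, and both bind AU-rich elements in mRNAs and promote their decay. The cells of all 4 libraries had DMSO for 3 h, followed by 10 min of actinomycin D, an inhibitor of transcription, at 5 µg/ml before harvest. Each clone gave 2 libraries, and each genotype rests on 1 clone, so that genotype and clone cannot be told apart.

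Hepatocytes make most proteins of blood plasma and release them through the secretory pathway. During inflammation, interleukin-6, acting through STAT3, and interleukin-1, acting through NF-kB and C/EBP factors, raise a group called positive acute-phase proteins. HP, HPX, ORM1, SAA1 and SERPINA1 are in that group, whereas AHSG, TTR and RBP4 are negative acute-phase proteins, whose levels fall in the same state. Hepatoma lines such as Huh7 keep part of this programme.

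Some properties of the sequences bear on how these genes can be read. HP and ORM1 each have a near-identical neighbour, HPR and ORM2, and reads of 80 bases can be assigned only where the copies differ. The transcripts of HP and HPR were identical at 96.2% of 1197 aligned bases, and 18.2% of the 80-base stretches of HP occurred unchanged in HPR. For ORM1 and ORM2 the identity was 95.9% over 760 aligned bases, and 38.3% of the stretches of ORM1 were shared. SAA1 and SAA2 were 96.7% identical over 662 bases, with 42.6% shared. AHSG and FETUB, the fetuins, are related but shared 0 stretches of that length. The coding stretches of 60 bases in which the copies differ most are shown 5′ to 3′ from GENCODE release 29, with the differing bases in capitals.
HP, coding bases 1016 to 1075: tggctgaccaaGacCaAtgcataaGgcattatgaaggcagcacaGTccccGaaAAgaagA
HPR, coding bases 734 to 793: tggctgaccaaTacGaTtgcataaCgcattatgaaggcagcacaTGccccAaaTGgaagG
ORM1, coding bases 338 to 397: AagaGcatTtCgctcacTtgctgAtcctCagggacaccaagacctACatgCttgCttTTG
ORM2, coding bases 338 to 397: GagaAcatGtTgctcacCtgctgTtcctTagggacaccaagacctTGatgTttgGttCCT
The copies differ at 10 bases in the first pair and at 14 in the second. Elsewhere long runs are the same in both, so the split of counts within each pair depends on how reads with several matches were counted, which the sources used here do not state.

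The other property is the AU-rich element that TTP and BRF1 bind. In the longest annotated 3′ UTR of each gene, the letters UAUUUAU were found in 1 of the 10 genes, RBP4, and the shorter AUUUA also in RBP4 alone. The site of RBP4 is shown with its 7 letters in capitals (hg38, chr10:93592010-93592016, minus strand), since it is the single match among the 10.
RBP4: gucuucagcucUAUUUAUcuuaggaguuu
Of 11917 tested genes with an annotated 3′ UTR, 36.1% held UAUUUAU, but their median 3′ UTR was 1414 bases long. The 3′ UTRs of 8 of the 10 genes were at most 400 bases long, and of 1855 tested genes with 3′ UTRs of at most 400 bases, 7.06% held the letters. A match is a string of letters and was not tested for binding.

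Counts on genes ran from 9685798 to 16430228 per library. ZFP36 and ZFP36L1 mRNA were not lower in DKO (log2 fold changes 0.48 and 0.13, edgeR adjusted p = 0.207 and 0.775), which does not check the labels, since the sources used here do not state the kind of mutation. The hepatocyte markers were high in every library (8 of 8 at 1 CPM or more, summed level 24664 to 27464 CPM). Of the 8, AFP fell from 7802 ± 611 to 3558 ± 164 CPM (SD, n = 2, log2 fold change -1.13, edgeR adjusted p = 0.0159) and 0 rose. APOB had 7612 ± 1341 CPM in control and 11584 ± 2083 CPM in DKO (SD, n = 2) and did not pass (0.61, edgeR adjusted p = 0.220). The macrophage markers summed to 75.5 and 77.1 CPM in control and to 109 and 127 CPM in DKO, nearly all of it LYZ, with CD163 at 0 throughout. LYZ did not pass (log2 fold change 0.62, edgeR adjusted p = 0.0743), and 0 of the 6 macrophage markers rose or fell. The same held for 0 of 5 cholangiocyte markers and 0 of 5 fibroblast and stellate markers. Of 5 endothelial markers PECAM1 was higher in DKO and the other 4 had 0 counts in every library. Of 5 intestinal epithelial markers 2 fell in DKO, CDH17 from 87.2 ± 1.24 to 4.18 ± 0.917 CPM (SD, n = 2; log2 fold change -4.40, edgeR adjusted p = 6.1e-08) and CDX2 from 45.0 ± 6.12 to 12.5 ± 1.78 CPM (SD, n = 2; -1.84, edgeR adjusted p = 0.000238), and MUC2 had 0 counts throughout. The list summed to 561 and 606 CPM in control and to 399.7 and 443 CPM in DKO. Most of that sum was VIL1, with 451 ± 27.5 CPM in control and 404 ± 30.2 CPM in DKO (SD, n = 2). VIL1 did not pass (log2 fold change -0.16, edgeR adjusted p = 0.719), and LGALS4 had at most 6 counts in any library and was not tested. The part of these marker differences in the results on the 10 genes was not tested. The share of ERCC spike-in RNA, added to 1 µg of total RNA, was 1.47% and 0.946% of all counts in control and 1.62% and 2.10% in DKO.

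Levels are given as CPM, counts scaled to a common library size with edgeR's TMM factor, and as mean ± SD over 2 libraries. A gene is said to rise or fall where edgeR's quasi-likelihood test over 13359 genes gave an adjusted p (Benjamini-Hochberg) under 0.05. Of the 10 genes, 8 passed the filter on low counts, with at least 17 counts in every library, so that none of the 8 entered through 1 clone alone. HP, AHSG, TTR and ORM1 rose in DKO, 0 fell, and HPX, RBP4, AMBP and SERPINA1 did not pass. The share of all tested genes that passed was 5.37% (2.24% higher and 3.14% lower). The median log2 fold change of the 8 genes was 0.78, against 0.0015 over all tested genes. The libraries did not overlap and DKO was the higher clone in 6 of the 8, as in 25.1% of tested genes, and it was the lower clone without overlap in 0 of the 8, as in 24.8%. The genes that rose included positive acute-phase proteins (HP and ORM1) and negative ones (AHSG and TTR). In RNA from whole cultures, more cells making a transcript and more transcript per cell cannot be told apart.

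**Figure D1:**
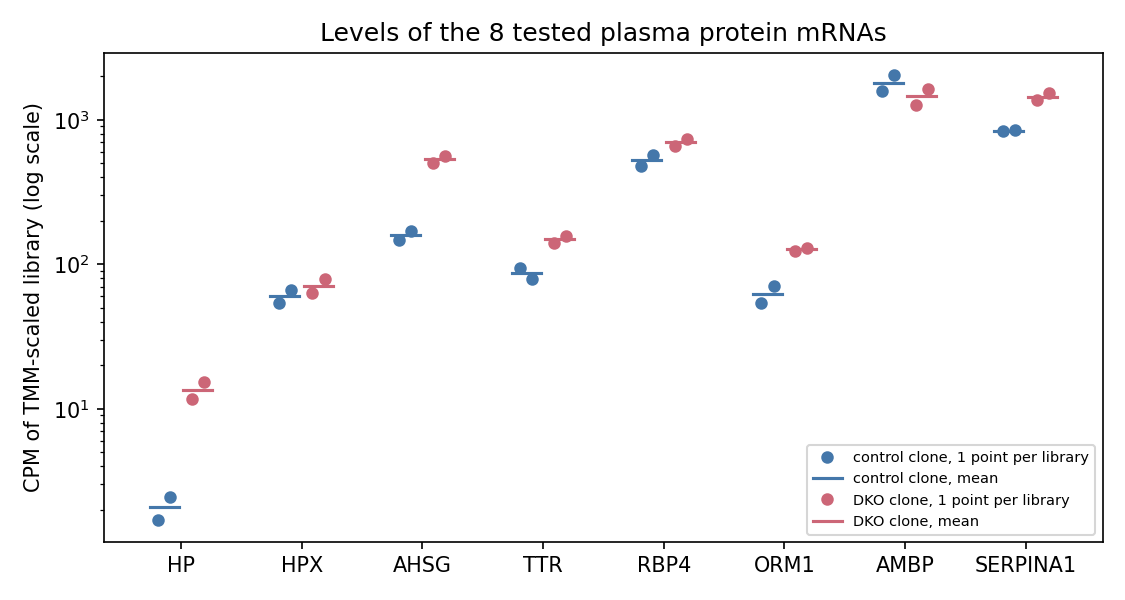
Level of the 8 tested genes in each library, in CPM of the TMM-scaled library on a log axis; points are the 2 libraries of a clone and lines their mean. The clones stand farthest apart for HP (2.08 against 13.6 CPM) and AHSG (159 against 532 CPM), and overlap for HPX and AMBP.

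Haptoglobin and hemopexin protect tissues from free haemoglobin and free haem. HP, whose product binds free haemoglobin, had 1.71 and 2.44 CPM in the control libraries (17 and 30 counts) and 11.8 and 15.4 CPM in the DKO libraries (122 and 249 counts). The clones did not overlap, and the lower DKO library was several times the higher control library. The mean rose 6.54-fold (log2 fold change 2.69, SE 0.31, edgeR adjusted p = 0.000132). The gene lies on chromosome 16 (72054592 to 72061055, plus strand, hg38), and HPX, which binds haem, on chromosome 11 (6431049 to 6442617, minus strand). HPX had 53.9 and 66.2 CPM in control and 63.4 and 78.6 CPM in DKO. Its libraries overlapped, and the log2 fold change was 0.24 (SE 0.20, edgeR adjusted p = 0.547). Per HPX count there were 0.0317 and 0.0369 HP counts in control and 0.186 and 0.196 in DKO. The separation of the clones by this ratio restates that of HP and is no further result.

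HPR, the neighbour of HP, which encodes haptoglobin-related protein, had 0.704 and 0.163 CPM in control and 1.45 and 2.23 CPM in DKO. Its log2 fold change was 2.17 (SE 0.59, edgeR adjusted p = 0.0437) on 7 and 2 counts in control, and it entered the test through the DKO libraries. DESeq2 did not call HPR (2.14, DESeq2 adjusted p = 0.157), nor did it pass without control replicate 2 (1.40, edgeR adjusted p = 0.206) or without DKO replicate 2 (1.78, edgeR adjusted p = 0.283). When HPR counts were added to HP, the log2 fold change of HP was 2.62 (edgeR adjusted p = 9.77e-05). With the near-identical copies summed, 5.32% of tested genes passed. TXNL4B, which overlaps HP on the other strand, had 16.8 ± 1.41 CPM in control and 17.7 ± 0.877 CPM in DKO (SD, n = 2), with a log2 fold change of 0.08 (edgeR adjusted p = 0.889).

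The fetuins are secreted cystatin-related proteins, and AHSG (fetuin-A) keeps calcium phosphate from precipitating in blood. AHSG had 148 and 171 CPM in control and 502 and 563 CPM in DKO. Neither DKO library came near the control range. The mean rose 3.34-fold, and the log2 fold change was 1.74 (SE 0.20, edgeR adjusted p = 0.000161). Within same-numbered libraries the folds were 3.39 and 3.30. FETUB, which encodes fetuin-B, an inhibitor of the egg-coat protease ovastacin, lies next to AHSG on chromosome 3 (186635969 to 186653141, against 186612923 to 186621318 for AHSG, both plus strand). FETUB had 0 and 4 counts in control and 6 and 13 counts in DKO, or 0, 0.326, 0.579 and 0.804 CPM, and was not tested after the filter. A count of 3 corresponds to 0.302 and 0.244 CPM in control and to 0.289 and 0.186 CPM in the DKO libraries, and FETUB exceeded 3 counts in 3 of the 4 libraries. Without a filter its adjusted p was 0.225 (edgeR).

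The next 2 genes of that cluster encode plasma proteins as well, and of these KNG1 was tested and did not pass. HRG, for histidine-rich glycoprotein, had 10 and 1 counts in control and 1 and 4 in DKO and was not tested after the filter. KNG1, for kininogen, had 23.7 and 17.2 CPM in control and 16.1 and 18.5 CPM in DKO, with overlapping libraries (log2 fold change -0.23, SE 0.24, edgeR adjusted p = 0.627). The 50 nearest tested genes around AHSG had a median log2 fold change of 0.14, with 2 of them higher and 1 lower. Over all tested genes 2.24% were higher and 3.14% lower. For HP the median of the 50 neighbours was -0.12, for TTR 0.11 and for ORM1 0.01.

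Promoter windows are shown for AHSG and ORM1, the risen genes that had an entry. Common regulation of the risen genes was not tested. Each window runs from 250 bases before to 50 bases after an annotated start, from RefSeq on GRCh38.p14, 5′ to 3′ along the gene. The bases from that start on are in capitals. The GENCODE positions of these genes begin earlier, at 186612923 for AHSG and at 114323056 for ORM1. Part of the lower-case bases thus lies inside the GENCODE genes. Of the 10 genes 7 had an entry, which leaves out HP, TTR and SAA1.
AHSG, chr3:186612810-186613109, plus strand: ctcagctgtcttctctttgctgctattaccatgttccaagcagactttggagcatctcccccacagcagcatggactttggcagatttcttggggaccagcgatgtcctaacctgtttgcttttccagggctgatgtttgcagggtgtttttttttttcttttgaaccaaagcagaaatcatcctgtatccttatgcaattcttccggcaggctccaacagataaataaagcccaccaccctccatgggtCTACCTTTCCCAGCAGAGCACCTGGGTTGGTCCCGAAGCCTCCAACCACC
ORM1, chr9:114322848-114323147, plus strand: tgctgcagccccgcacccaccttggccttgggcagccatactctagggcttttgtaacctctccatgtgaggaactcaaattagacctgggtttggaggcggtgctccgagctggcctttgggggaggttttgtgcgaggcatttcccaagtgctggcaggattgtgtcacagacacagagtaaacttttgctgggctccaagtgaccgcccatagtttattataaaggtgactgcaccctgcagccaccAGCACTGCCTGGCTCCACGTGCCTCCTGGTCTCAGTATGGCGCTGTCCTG
Both strands were searched for TTCNNNGAA (STAT factors), TTNCGCAA (C/EBP), GTTAAT (HNF1) and, for NF-kB, GGG and TTTCC with 2 bases between them. Neither window above held any of them. Among the 11 windows of the 7 genes, 1 of RBP4 held the STAT letters, 186 bases before the start of that window. A window of SERPINA1 (94388553 to 94388852) held the HNF1 letters, 76 bases before its own start. That start lies inside the gene, whose GENCODE position on the minus strand begins at 94390693. The SERPINA1 window at this 5′ end (94390586 to 94390885) held none of the letters. The matches are shown with the motif in capitals, both on the minus strand.
RBP4, chr10:93601912-93601940: tcaaagtggtTTCAGGGAAgtgccacgga
SERPINA1, chr14:94388663-94388688: ggtgaccttgGTTAATattcaccagc
Of 35116 promoter windows, 7.66% held the STAT letters, 6.88% the HNF1 letters, 1.91% the NF-kB letters and 0.891% the C/EBP letters. These matches are descriptions of the letters in the windows.

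Transthyretin and retinol-binding protein travel together in plasma. TTR carries thyroxine and binds RBP4, which carries retinol out of the liver. TTR (chromosome 18, 31557010 to 31599021, plus strand) had 94.5 and 79.8 CPM in control and 141 and 158 CPM in DKO. The libraries did not overlap, and the log2 fold change was 0.78 (SE 0.20, edgeR adjusted p = 0.0297). The call was lost without control replicate 2 (0.66, edgeR adjusted p = 0.0922), without DKO replicate 1 (0.86, edgeR adjusted p = 0.177) and without DKO replicate 2 (0.70, edgeR adjusted p = 0.372), where 5.46%, 1.83% and 1.77% of tested genes passed. RBP4 (chromosome 10, 93591687 to 93601744, minus strand), the gene with the AU-rich letters, had 482 and 569 CPM in control and 661 and 741 CPM in DKO. Its libraries did not overlap either, but it did not pass, with 0.42 (SE 0.21) as log2 fold change (edgeR adjusted p = 0.283). RBP4 had 5.10 and 7.14 counts per TTR count in control and 4.67 and 4.68 in the DKO libraries. FFAR4, which overlaps RBP4 on the other strand, had 1.60 ± 0.272 CPM in control and 0.778 ± 0.400 CPM in DKO (SD, n = 2) and did not pass (log2 fold change -1.12, edgeR adjusted p = 0.218).

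Orosomucoid, or alpha-1-acid glycoprotein, is an acute-phase lipocalin that binds many drugs. ORM1 (chromosome 9, 114323056 to 114326475, plus strand) had 53.8 and 71.2 CPM in control and 124 and 130.4 CPM in DKO. The clones were separate, and the mean rose 2.03-fold (log2 fold change 1.02, SE 0.20, edgeR adjusted p = 0.00922). It did not pass without DKO replicate 1 (1.06, edgeR adjusted p = 0.0519) or without DKO replicate 2 (0.98, edgeR adjusted p = 0.0920). ORM2, the adjacent copy (114329869 to 114333252), rose from 24.0 ± 2.86 to 47.0 ± 6.54 CPM (SD, n = 2; log2 fold change 0.97, SE 0.21, edgeR adjusted p = 0.0153), with the same reservation on shared reads and with its call likewise lost without DKO replicate 1 (1.10, edgeR adjusted p = 0.0524) or DKO replicate 2 (0.81, edgeR adjusted p = 0.281). ORM1 had 2.44 and 2.73 counts per ORM2 count in control and 2.93 and 2.53 in DKO, so the split within the pair overlapped between the clones. With ORM2 counts added, ORM1 had a log2 fold change of 1.01 (edgeR adjusted p = 0.00930).

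SAA1, for serum amyloid A, a major acute-phase apolipoprotein, was at the limit of detection (chromosome 11, 18266174 to 18269977). It had 0 and 2 counts in control and 0 and 0 in the DKO libraries, where 3 counts would be the floor. SAA2 had 0 counts in 3 libraries and 2 in DKO replicate 1. SAA4, a form made without inflammation, had 1.41 and 0.407 CPM in control and 1.64 and 1.11 CPM in DKO and did not pass (log2 fold change 0.62, SE 0.55, edgeR adjusted p = 0.574). No difference in SAA1 was detectable at this depth.

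The remaining genes encode protease inhibitors. AMBP encodes a precursor that is cut into the lipocalin alpha-1-microglobulin and bikunin, an inhibitor of serine proteases, and it was the one tested gene of the set with a negative value. AMBP (chromosome 9, 114060127 to 114078472, minus strand) had 1576 and 2037 CPM in control and 1269 and 1644 CPM in DKO. The higher DKO library exceeded the lower control library, and the log2 fold change was -0.31 (SE 0.24, edgeR adjusted p = 0.513). SERPINA1 encodes alpha-1-antitrypsin, which inhibits neutrophil elastase. SERPINA1 (chromosome 14, 94376747 to 94390693, minus strand) had 835 and 852 CPM in control and 1367 and 1523 CPM in DKO. The clones did not overlap, and the mean ratio was 1.71, but the difference of 0.78 on the log2 scale (SE 0.22) just missed the threshold (edgeR adjusted p = 0.0528). It passed with DESeq2 (0.77, DESeq2 adjusted p = 0.00254), with limma-voom (0.77, limma adjusted p = 0.0293) and without a filter (0.79, edgeR adjusted p = 0.00577), where 5.18%, 5.25% and 5.39% of tested genes passed. It passed in none of the 4 edgeR fits without 1 library (log2 fold change 0.69 to 0.85).

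**Figure D2:**
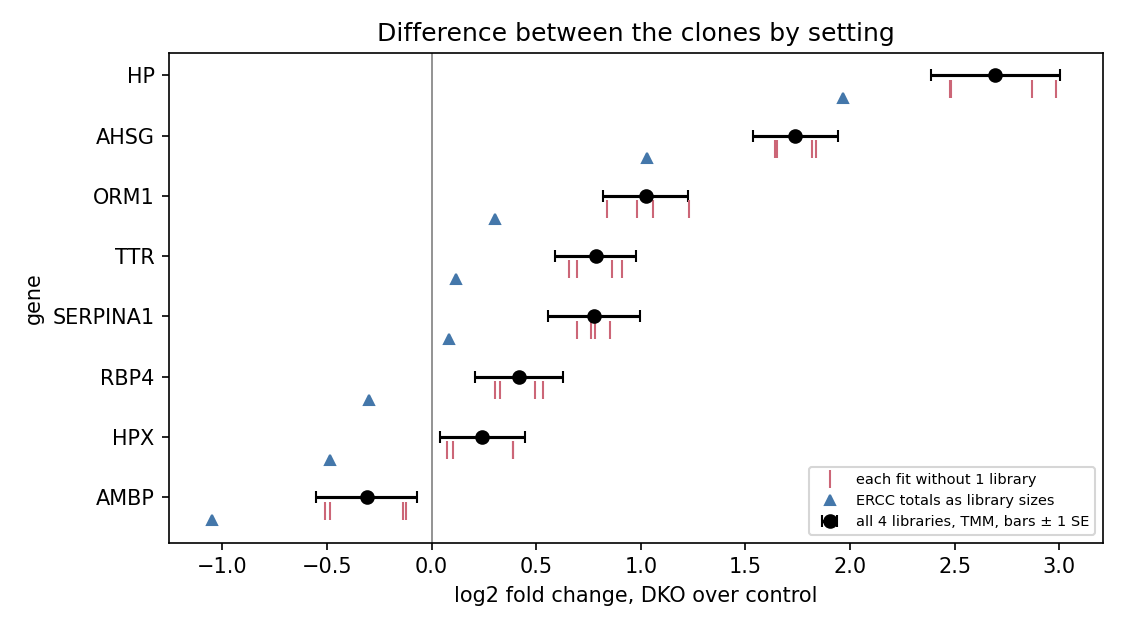
Log2 fold change of DKO over control for the 8 tested genes: points with bars of 1 SE from all 4 libraries, ticks from the fits without 1 library and triangles with ERCC totals as library sizes. HP, AHSG, ORM1, TTR and SERPINA1 stay above 0 in all of these fits, and RBP4 and HPX lie below 0 with ERCC totals.

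HP was the one gene of the set whose call held under both scalings. With ERCC totals as library sizes the median of all tested genes shifted to -0.68, so the changes above are relative to the median gene. On that scale 1 of the 8 genes passed, where 2.46% of all tested genes did. Over all genes that scale gave 22 higher and 307 lower, against 299 and 419 with TMM. HP had a log2 fold change of 1.97 (edgeR adjusted p = 0.0290). AHSG was at 1.03 (edgeR adjusted p = 0.263), ORM1 at 0.30, TTR at 0.12 and SERPINA1 at 0.08, none of which passed. RBP4 (-0.30), HPX (-0.49) and AMBP (-1.05) had negative values and did not pass either. The SEs were also wider on that scale, at 0.54 for AHSG, 0.53 for ORM1 and 0.53 for TTR, against 0.20 for each with TMM. The lost calls of these genes thus came with lower values and wider SEs together. HP and AHSG passed in each of the 4 fits without 1 library (16.4% of tested genes passed without control replicate 1), with log2 fold changes from 2.48 to 2.98 and from 1.64 to 1.84.

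The set as a whole took 0.333% and 0.378% of gene counts in control and 0.418% and 0.478% in DKO. Its make-up moved as well. AMBP made up 48.6% and 52.9% of the counts on the 10 genes in control and 30.7% and 33.9% in DKO. SERPINA1 made up 25.7% and 22.1% in control and 33.0% and 31.4% in DKO, and AHSG 4.57% and 4.44% against 12.1% and 11.6%. RBP4 held a similar share throughout (14.8% to 16.0%). AMBP counts were 1.89 and 2.39 times SERPINA1 counts in control and 0.929 and 1.08 times in DKO.

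**Figure D3:**
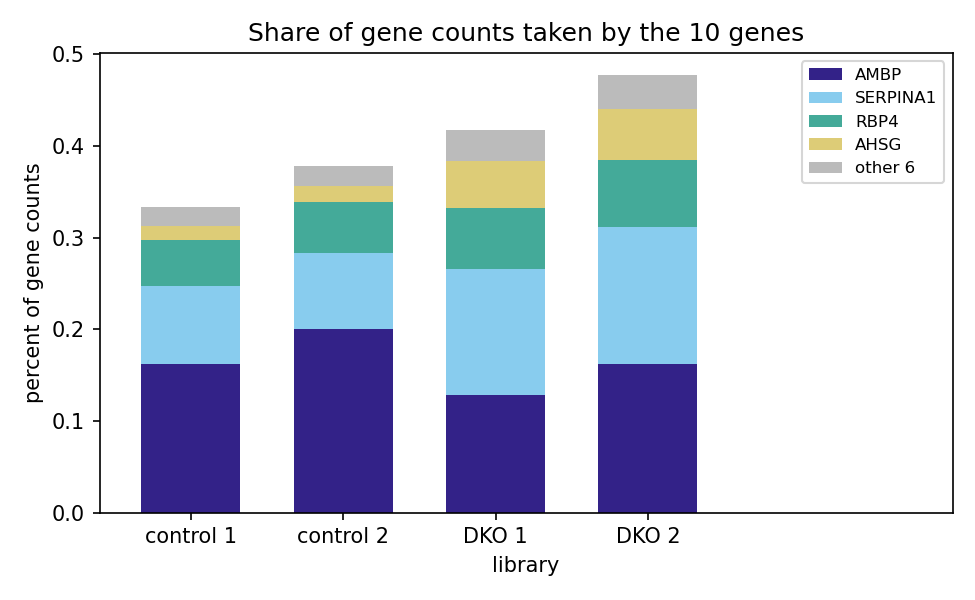
Percent of gene counts on the 10 genes in each library, stacked by gene with the 6 lowest merged; the axis starts at 0. AMBP is the largest part in both control libraries, whereas AMBP and SERPINA1 are close in both DKO libraries.

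Between genes, levels were compared per kilobase of the shortest transcript with the longest coding sequence. In control the order was AMBP (1259.7 ± 227 CPM per kilobase), SERPINA1 (568 ± 7.96), RBP4 (492 ± 57.6), AHSG (103 ± 10.3), TTR (83.8 ± 9.99), ORM1 (77.9 ± 15.3), HPX (36.4 ± 5.27) and HP (1.40 ± 0.350; SD, n = 2). Judged by whether the ranges of mean ± SD overlap, AHSG, TTR and ORM1 did not differ from one another beyond their spread. In DKO the order was AMBP (1016 ± 185), SERPINA1 (973 ± 74.1), RBP4 (657 ± 53.2), AHSG (343 ± 27.8), ORM1 (159 ± 5.71), TTR (144 ± 11.5), HPX (43.0 ± 6.53) and HP (9.17 ± 1.74; SD, n = 2). Here AMBP and SERPINA1 did not differ beyond their spread, nor did ORM1 and TTR. Per kilobase of all annotated exons, SERPINA1 (172 in control, 295 in DKO) fell below RBP4 (363 and 484), and in control ORM1 (69.4) came just above AHSG (67.8).

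Among other acute-phase plasma proteins, of 20 listed genes 12 were tested, 4 rose and 0 fell. Of all tested genes 2.24% rose and 3.14% fell. The median log2 fold change of the list was 0.65. This median includes HPR and ORM2, so it is not separate from the values of HP and ORM1, and it was not taken without them. HAMP, for the iron hormone hepcidin, rose from 1.87 ± 0.342 to 8.94 ± 1.27 CPM (SD, n = 2; log2 fold change 2.26, edgeR adjusted p = 0.000887). C3, the central complement protein, rose from 176 ± 37.7 to 399 ± 13.9 CPM (SD, n = 2; 1.18, edgeR adjusted p = 0.00411), and the others were ORM2 and HPR, described above. ORM2 and HPR can share reads with ORM1 and HP, and HPR entered the test through the DKO libraries. With their counts added to those of ORM1 and HP, 2 genes of the list rose, where 5.32% of tested genes passed. The fibrinogen chains FGA (-0.36), FGB (-0.31) and FGG (-0.52) had negative values and did not pass (edgeR adjusted p = 0.346, 0.441 and 0.142). CRP, APCS and LCN2 had 0 counts in every library. LBP, which binds bacterial lipopolysaccharide, had 0 and 0 counts in control and 9 and 6 in DKO and was not tested.

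Other carriers and secreted plasma proteins moved in both directions. Of 24 listed genes 18 were tested, 4 rose, 2 fell and 12 did not pass, with a median of 0.03. Over all tested genes 2.24% rose and 3.14% fell. AGT, for angiotensinogen, rose from 409 ± 64.5 to 769 ± 68.3 CPM (SD, n = 2; 0.91, edgeR adjusted p = 0.0233). APOH (1.16), the C1 inhibitor gene SERPING1 (0.90) and PROS1 (0.72), for the anticoagulant protein S, also rose. AFP (-1.13) and SERPINC1 (-0.94), for antithrombin, fell. ALB, the major plasma carrier, had 7374 ± 581 CPM in control and 7587 ± 31.1 CPM in DKO (SD, n = 2; 0.04, edgeR adjusted p = 0.950). Of these 6 calls, all were lost without DKO replicate 2 (edgeR adjusted p from 0.0527 for APOH to 0.373 for SERPINC1).

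Among 26 genes of acute-phase signalling and transcription, 2 rose, 1 fell and 23 did not pass (median -0.10), where 5.37% of all tested genes passed. SOCS3, the feedback inhibitor of interleukin-6 signalling, rose from 5.07 ± 0.202 to 11.0 ± 3.85 CPM (SD, n = 2; 1.13, edgeR adjusted p = 0.0359), and NR3C1, the glucocorticoid receptor gene, had a log2 fold change of 0.70 (edgeR adjusted p = 0.0456). Neither SOCS3 (0.70) nor NR3C1 (0.69) passed without DKO replicate 2. They did not both pass without control replicate 2 or without DKO replicate 1 either, and neither passed with ERCC totals as library sizes. CEBPD, for a C/EBP factor that activates acute-phase genes, fell from 9.79 ± 2.18 to 3.19 ± 0.827 CPM (SD, n = 2; -1.59, edgeR adjusted p = 0.00708), a call lost without DKO replicate 1 (-1.38, edgeR adjusted p = 0.0649). STAT3 had 86.2 ± 4.96 CPM in control and 84.0 ± 0.378 CPM in DKO (SD, n = 2; -0.04, edgeR adjusted p = 0.941). The interleukin-6 receptor subunits IL6R (-0.49, edgeR adjusted p = 0.213) and IL6ST (-0.70, edgeR adjusted p = 0.0630), and HNF4A (-0.48, edgeR adjusted p = 0.181), a regulator of hepatocyte genes, did not pass.

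Of 21 receptors and partners of the 10 proteins, 14 were tested and 0 rose (median log2 fold change -0.24), where 2.24% of all tested genes rose. Without adjustment (edgeR p under 0.05) 1 gene of this list was higher and 4 were lower. CD163, the receptor for haptoglobin bound to haemoglobin, had 0 counts in every library, and STRA6, which takes up retinol from RBP4, had 1 count in all. Of 25 genes of the export machinery 24 were tested, and SEC61B, a subunit of the channel into the endoplasmic reticulum, rose (0.88, edgeR adjusted p = 0.0491). In this list 0 fell and 23 did not pass (median 0.15), where 5.37% of all tested genes passed. LMAN1 (0.13) and SURF4 (0.28), cargo receptors for secreted proteins, did not pass. Leaving out control replicate 2 (0.52), DKO replicate 1 (1.03) or DKO replicate 2 (0.70) ended the call of SEC61B.

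**Figure D4:**
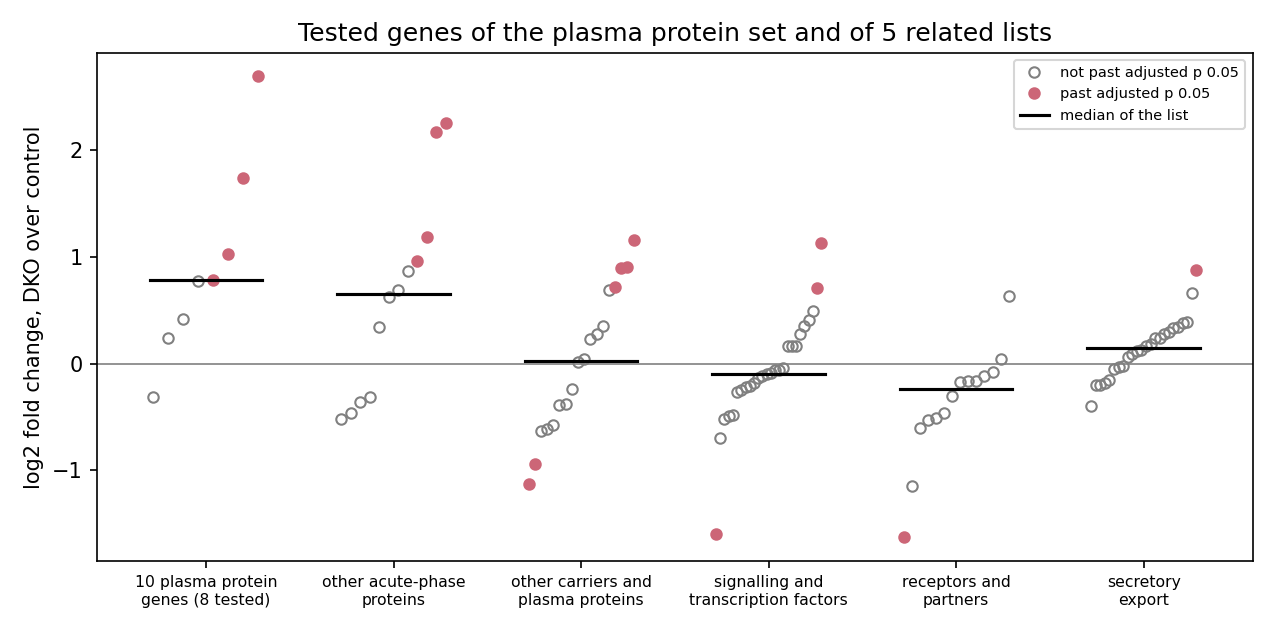
Log2 fold change of DKO over control for each tested gene of the set and of 5 related lists; filled points passed an adjusted p of 0.05 and lines are list medians. The medians are 0.78 for the set, 0.65 for other acute-phase proteins and between -0.24 and 0.15 for the other lists. The list of other acute-phase proteins and its median include HPR and ORM2, the near-identical copies of HP and ORM1.

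For each of the 4 risen genes, the 2 protein-coding genes of at least 10 CPM with the nearest profile over the 4 libraries were found by Euclidean distance on centred log2 CPM. Nearest to HP were SPP1, for osteopontin (distance 0.291), and the cytokine gene IL11 (0.451). Nearest to AHSG were the adhesion molecule gene CEACAM1 (0.243) and the amino acid transporter gene SLC6A14 (0.277). Nearest to TTR were HCCS (0.0409) and REXO2 (0.0678), and nearest to ORM1 were SEMA3F (0.0368) and FLNC (0.0589). The distances rest on 4 libraries and include the difference between the clones.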

How the data were processed

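Total RNA of Huh7 cells was depleted of ribosomal RNA and sequenced from 1 end with reads of 80 bases, per the labels' protocols, in 2 libraries of each clone. The authors deposited 1 table of raw read counts per gene symbol. Genome build hg38 and the tools DESeq2, featureCounts, Subread 1.6.3 and STAR 2.5.3a are listed per the submitters' processing notes. The sources used here do not state the annotation, the strand setting or how multiply matching reads were counted.

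The 92 ERCC rows were left out of library sizes and tests. Genes were kept by filterByExpr, scaled by TMM and tested with edgeR 4.0.16 in R 4.3.3 (quasi-likelihood test, group as the only term), with p-values adjusted over all 13359 genes tested. An exact permutation test of 2 libraries against 2 cannot go below p = 0.333. Nothing in the labels makes the libraries of a clone separate cultures, and the p-values therefore reflect a spread that may be technical only. Libraries of a clone differed by far more than counting noise (chi-square per degree of freedom 36.6 for control and 29.7 for DKO). The floors on counts cover counting error only. The SEs come from the edgeR fit and include the spread between libraries of a clone.

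Alternatives were DESeq2 1.42.0 as a test, its size factors in edgeR, limma-voom (limma 3.58.1), ERCC totals, no filter, a replicate block and each library left out; summing near-identical copies was added after seeing the data. Positions and 3′ UTRs are from GENCODE 29 (hg38), and promoters from RefSeq (GRCh38.p14). Named are the 10 genes, their copies and neighbours, list genes past the threshold (otherwise the one with the smallest adjusted p) and nearest profiles; other list genes were named after their values were seen. The genes and lists were chosen with earlier results of these data known. Protein sequences were not used here, so copies were compared as transcripts. A result on 1 gene of the related lists is not reported here.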

Additional observations from a re-analysis of the deposited data

How the results depend on the processing

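HP and AHSG passed under all 11 alternatives, except AHSG with ERCC totals. With ERCC totals 329 genes, 1 of the 10 plasma protein genes and 2 genes of the related lists passed. Without a filter 1194 genes passed. Over the fits without 1 library, 237 to 2193 genes, 2 to 4 of the plasma protein genes and 4 to 21 genes of the related lists passed, against 718, 4 and 15 with all libraries. The labels give both clones replicate numbers 1 and 2 but state no pairing. Deviations of same-numbered libraries from the clone means correlated at 0.470, over 2 pairs only. With the replicate number as a block 4021 genes, 6 of the plasma protein genes (RBP4 at 0.42, edgeR adjusted p = 0.00500, and SERPINA1 at 0.78, edgeR adjusted p = 5.83e-08, besides the 4) and 44 genes of the related lists passed, where 30.1% of all tested genes did. Depth limits SAA1 in every library (0 to 2 counts, under the floor of 3), and FETUB (0 and 4 counts) and HPR (7 and 2 counts) in control. HP, AHSG, TTR and ORM1 kept a positive sign under every alternative run.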
